A study of Mus musculus with 15 samples.

Results

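The genes described here are 10 genes of prostaglandin and leukotriene metabolism, found in the deposited expression table by matching its mouse gene identifiers to the symbols Pla2g4a, Ptgs1, Ptgs2, Ptges, Ptges2, Hpgd, Ptger4, Alox5, Alox5ap and Ltc4s. All 10 symbols matched exactly 1 identifier each, out of 56979 identifiers in the table. Values are in TPM, in which reads are corrected for transcript length and scaled to the same total in every library, so that levels of different genes can be set side by side. The label of the set is broader than enzymes, since Ptger4 encodes a receptor and Alox5ap a helper protein of an enzyme.

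The 15 libraries came from polyadenylated RNA of wild type mouse bone marrow cells, in 5 groups of 3. Bone marrow-derived macrophages (BMDM) were given vehicle (Control), LPS, or LPS with NZM (LPS_NZM), where LPS is a bacterial glycolipid (lipopolysaccharide) to which macrophages react strongly. Cells labelled BMSC were given the treatment written as H2HO (Aged) or H2HO with NZM (Aged_NZM). The design text says that NZM was given after pretreatment with model drugs, and the labels explain neither NZM, H2HO, the doses nor the times. All NZM groups therefore also carry a model drug, and neither NZM alone nor BMSC without H2HO was analysed here. The labels do not say whether the libraries of a group are separate animals, cultures or repeated preparations, so the spread behind every p-value is that between these libraries alone and may be technical.

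Prostaglandins and leukotrienes are lipid mediators made from arachidonic acid, a fatty acid that cytosolic phospholipase A2 (Pla2g4a) releases from membranes. In the prostaglandin branch the cyclooxygenases Ptgs1, usually present without stimulation, and Ptgs2, the inducible form, make prostaglandin H2. The synthases Ptges and Ptges2 turn that into prostaglandin E2, which acts through receptors such as Ptger4 and is inactivated by the dehydrogenase Hpgd. In the leukotriene branch Alox5 (5-lipoxygenase), with its activating protein Alox5ap, makes leukotriene A4, which Ltc4s joins to glutathione to form leukotriene C4. Activated macrophages and mast cells are known sources of these mediators.

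Markers of the labelled cell types were checked first. All 8 macrophage markers were present in the BMDM libraries, with summed levels of 20888 to 30453 TPM, against 18.6 to 32.7 TPM in the BMSC libraries, where Adgre1 and C1qa were at most 0.09 TPM. The BMDM libraries also held markers of other cells: 8 stromal markers summed to 2103 to 2842 TPM, 8 neutrophil markers to 1488 to 2444 TPM and 8 mast cell and basophil markers to 16.8 to 532.8 TPM. The labels do not spell out BMSC, and those libraries had stromal sums of 2463 to 2547 TPM in Aged and 5514 to 5532 TPM in Aged_NZM, with mast cell and basophil sums of at most 2.77 TPM. The part of these other cells in the results was not tested, and in such bulk samples fewer cells of a type cannot be told apart from less RNA per cell. Between 21360 and 23398 identifiers were above 0 in a library, and the sequencing depth is unknown.

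Each comparison was fitted over all genes with limma on log2(TPM + 1), a scale that understates the change of low genes, and a gene was called higher or lower at an adjusted p under 0.05 (Benjamini-Hochberg). In LPS against Control all 10 genes were tested, and 4 were called higher and 6 lower. Among all 14486 genes tested there, 15.2% were called higher and 65.6% lower, so being called at all, as 80.8% of genes were, is near the background. In LPS_NZM against LPS 5 were called higher and 3 lower, against a background of 77.3% of genes called, 60.4% higher and 16.9% lower. In LPS_NZM against Control 6 were called higher and 2 lower, where 47.7% of genes were called, 18.6% higher and 29.1% lower. In Aged_NZM against Aged only 6 of the 10 genes reached the minimum level for a test, and none was called higher and 4 lower, where 70.5% of 13865 genes were called, 21.6% higher and 48.9% lower. The first 3 of these comparisons share libraries in pairs, so their changes are not independent of each other.

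The tested genes as a whole were shifted between groups, and the cause of this shift was not tested. The median log2 change over all genes was -0.48 in LPS against Control, 0.40 in LPS_NZM against LPS, -0.07 in LPS_NZM against Control and -0.18 in Aged_NZM against Aged. After every library was centred on the median of its tested genes, rises made up 55.7% rather than 18.8% of the calls in LPS against Control and 45.7% rather than 78.2% in LPS_NZM against LPS. The same share went from 39.0% to 53.1% in LPS_NZM against Control and from 30.7% to 46.8% in Aged_NZM against Aged. On the centred scale the members' calls were 4 higher and 3 lower in LPS against Control, 5 and 4 in LPS_NZM against LPS, 7 and 2 in LPS_NZM against Control, and none and 4 in Aged_NZM against Aged. Among all genes the centred calls in LPS against Control were 65.5%, with 36.5% higher and 29.1% lower, and in LPS_NZM against LPS 65.1%, with 29.8% and 35.3%. In LPS_NZM against Control they were 47%, with 24.9% higher and 22% lower, and in Aged_NZM against Aged 66.5%, with 31.1% and 35.4%. The median log2 change of the 10 genes was -0.56 in LPS against Control and 0.62 in LPS_NZM against LPS, beside -0.48 and 0.40 over all genes.

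**Figure D1:**
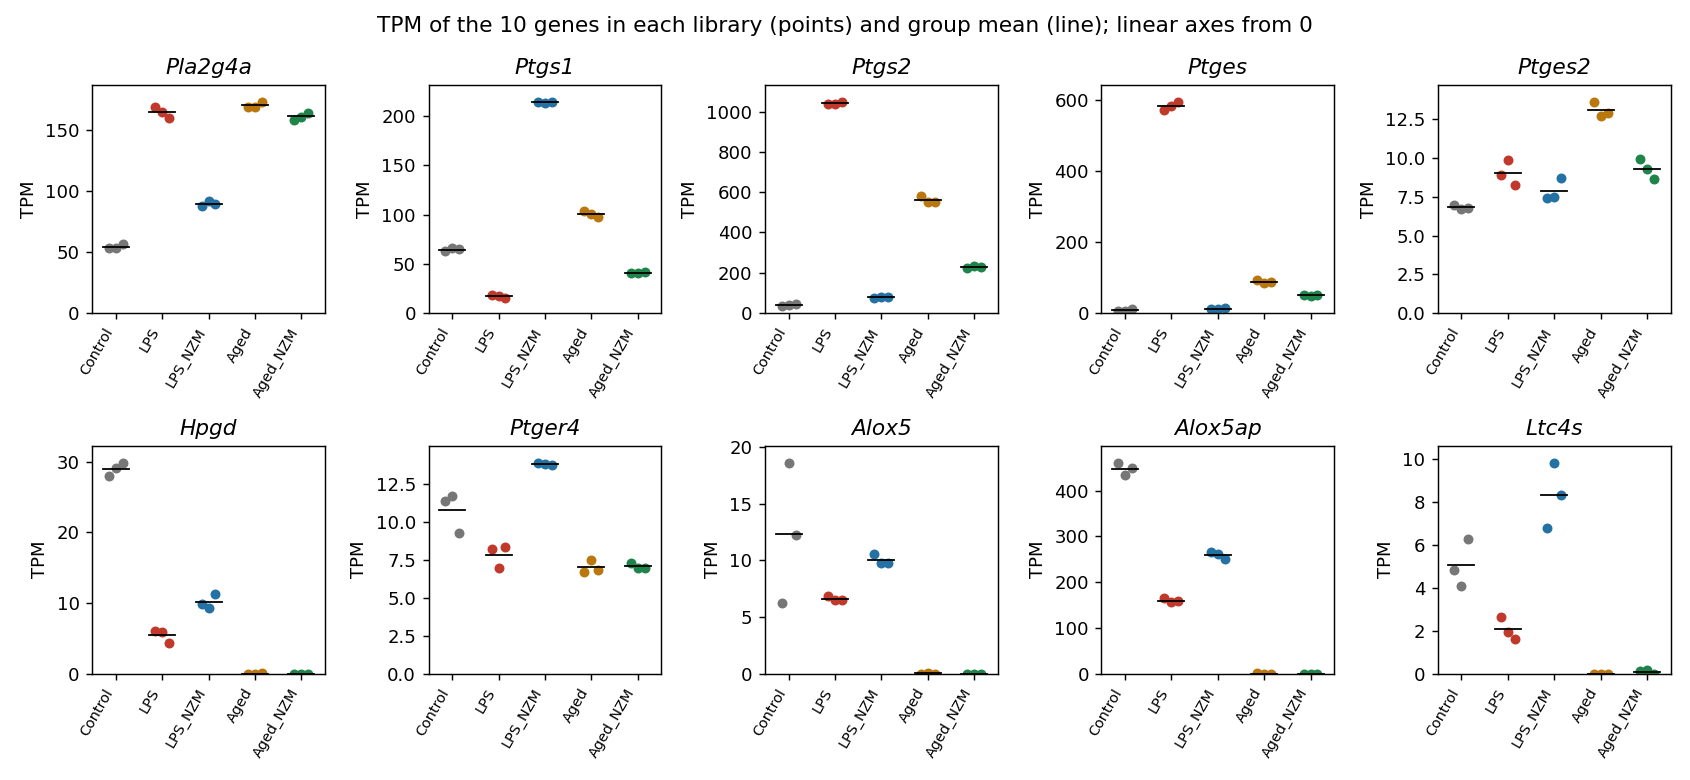
TPM (vertical axes, linear from 0) of each of the 10 genes in the 3 libraries of every group; points are libraries and lines are group means. Ptgs2 and Ptges stand highest in LPS and Ptgs1 highest in LPS_NZM, and the points of Hpgd, Alox5, Alox5ap and Ltc4s in the BMSC groups lie at or near 0.

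The gene for release of arachidonic acid rose with LPS in macrophages and was not called changed by NZM in BMSC. Pla2g4a (ENSMUSG00000056220) read 53.2, 52.8 and 56.2 TPM in Control, 168.8, 164.3 and 159.7 TPM in LPS, and 87.2, 91.9 and 89.5 TPM in LPS_NZM. The 3 groups did not overlap, and LPS_NZM lay between the others. The level rose 3.04-fold with LPS (log2 change 1.59, SE 0.04, adjusted p = 1.31e-10), and in LPS_NZM it was 1.83-fold lower than in LPS (log2 change -0.87, adjusted p = 1.03e-08) and 1.66-fold above Control (0.72, adjusted p = 2.23e-07). In BMSC, Pla2g4a read 169.1, 168.7 and 173.0 TPM in Aged and 158.2, 160.7 and 164.1 TPM in Aged_NZM. These 2 groups did not overlap but the difference was not called (log2 change -0.08, 95% interval -0.15 to -0.01, adjusted p = 0.0514), and it was 0.08 after centring (adjusted p = 0.0679). Without Aged replicate 1 it was called for Pla2g4a (-0.09, adjusted p = 0.0477). By mean the order was Aged, LPS, Aged_NZM, LPS_NZM and Control, and the first 3 overlapped with their neighbours.

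The 2 cyclooxygenase genes moved in opposite directions with LPS, and with NZM after LPS, in BMDM, and both fell with NZM in BMSC. Ptgs2 (ENSMUSG00000032487) read 36.3, 37.7 and 41.9 TPM in Control and 1039, 1040 and 1049 TPM in LPS. That was a 27-fold rise (log2 change 4.72, SE 0.05, adjusted p = 1.27e-12). With NZM the 3 LPS_NZM libraries read 72.7, 77.5 and 79.6 TPM, 13.6-fold below LPS (log2 change -3.75, SE 0.05, adjusted p = 4.01e-12). They still stood above every Control library, by 1.98-fold in the mean (log2 change 0.97, adjusted p = 2.58e-07).

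Ptgs1 (ENSMUSG00000047250) went the other way. It read 62.5, 65.5 and 65.3 TPM in Control and 18.5, 17.0 and 15.3 TPM in LPS, a 3.80-fold fall (log2 change -1.87, SE 0.06, adjusted p = 9.01e-10). In LPS_NZM it read 214.6, 213.5 and 214.1 TPM, 12.6-fold above LPS (log2 change 3.59, SE 0.06, adjusted p = 1.05e-11). This level was also 3.32-fold above Control (log2 change 1.72, adjusted p = 9.02e-09) and the highest of the 5 groups. Both directions held after centring, with log2 changes of -1.32 for LPS against Control and 3.12 for LPS_NZM against LPS in Ptgs1.

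The make-up of the cyclooxygenase transcripts changed accordingly. Ptgs2 accounted for 37.5% ± 1.41 of the summed TPM of Ptgs1 and Ptgs2 in Control, 98.4% ± 0.155 in LPS and 26.3% ± 0.930 in LPS_NZM (SD, n = 3). The summed level was 103.1 ± 4.21 TPM in Control, 1060 ± 4.22 TPM in LPS and 290.6 ± 3.25 TPM in LPS_NZM. LPS_NZM libraries thus held more cyclooxygenase transcript than Control, with a smaller share from Ptgs2. The libraries of the 3 groups did not overlap in either measure. No test was run on these shares, since an exact permutation test of 3 libraries against 3 cannot give a p under 0.1.

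In BMSC, Ptgs2 read 580.1, 549.5 and 553.8 TPM in Aged and 221.5, 234.0 and 229.1 TPM in Aged_NZM, a 2.46-fold fall (log2 change -1.29, SE 0.04, adjusted p = 4.80e-09). Ptgs1 read 103.9, 101.0 and 97.3 TPM in Aged and 40.5, 40.3 and 41.4 TPM in Aged_NZM, a 2.47-fold fall (log2 change -1.28, SE 0.04, adjusted p = 8.72e-09). Neither gene's groups overlapped. Over the 5 groups the order of Ptgs1 was LPS_NZM, Aged, Control, Aged_NZM and LPS, and no neighbours in it overlapped. The share of Ptgs2 was 84.8% ± 0.296 in Aged and 84.8% ± 0.409 in Aged_NZM (SD, n = 3), while the summed level went from 661.8 ± 19.1 to 268.9 ± 6.29 TPM. The share thus differed by less than the spread between libraries while the summed level fell.

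**Figure D2:**
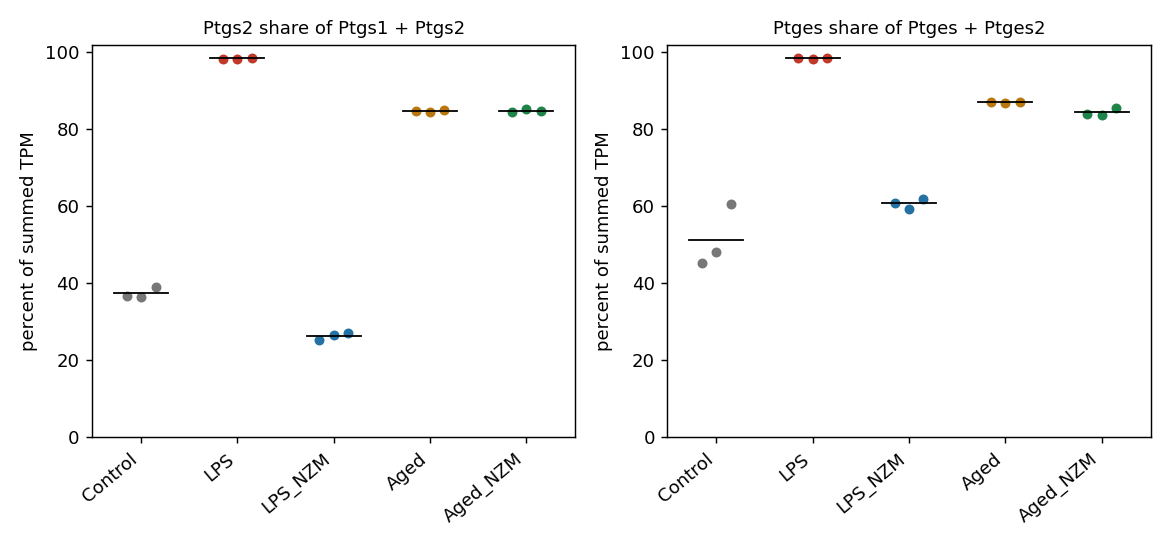
Percent of summed TPM (vertical axes from 0) that came from Ptgs2 among the cyclooxygenase genes, left, and from Ptges among Ptges and Ptges2, right; points are libraries and lines are means of 3. The Ptgs2 share is 98.4% in LPS and 26.3% in LPS_NZM, and the 2 BMSC groups lie at 84.8%.

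Ptges, the inducible membrane-bound prostaglandin E synthase, had the largest change of the 10 genes in LPS against Control. Ptges (ENSMUSG00000050737) read 5.78, 6.19 and 10.4 TPM in Control and 573.6, 584.3 and 595.8 TPM in LPS, a 78.4-fold rise (log2 change 6.15, SE 0.17, adjusted p = 4.41e-10). Control replicate 3 was the highest Control library for both Ptges and Ptgs2, and without it the log2 change of Ptges was 6.39. In LPS_NZM it read 11.6, 10.9 and 14.3 TPM, 47.7-fold below LPS (log2 change -5.47, SE 0.17, adjusted p = 1.00e-09). All 3 lay above the highest Control library, by 1.64-fold in the means (log2 change 0.68, adjusted p = 0.00886, or 0.92 without Control replicate 3).

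Ptges2, a second prostaglandin E synthase, is a low gene whose changes were small. It (ENSMUSG00000026820) read 6.98, 6.70 and 6.79 TPM in Control, 8.91, 9.90 and 8.26 TPM in LPS, and 7.45, 7.48 and 8.73 TPM in LPS_NZM. Only the rise with LPS was called for Ptges2 (log2 change 0.35, SE 0.09, adjusted p = 0.00322), and LPS_NZM overlapped with LPS. LPS_NZM against LPS gave -0.17 for Ptges2 (95% interval -0.37 to 0.02, adjusted p = 0.0886) and LPS_NZM against Control 0.18 (-0.01 to 0.37, adjusted p = 0.11). Both differences of Ptges2 were called after centring, at log2 changes of -0.64 (adjusted p = 4.89e-05) and 0.26 (adjusted p = 0.0205). The first was also called on the deposited scale when LPS replicate 3 (adjusted p = 0.0484) or, separately, LPS_NZM replicate 3 (adjusted p = 0.0308) was left out for Ptges2. Ptges thus made up 51.3% ± 8.11 of the summed TPM of Ptges and Ptges2 in Control (SD, n = 3). The share was 98.5% ± 0.150 in LPS and 60.7% ± 1.34 in LPS_NZM, where Control and LPS_NZM overlapped. Another prostaglandin E synthase, Ptges3, is not one of the 10 genes and lies outside this share. It read 116.0 ± 11.2 TPM in Control, 101.1 ± 1.21 TPM in LPS and 119.3 ± 8.44 TPM in LPS_NZM. The share therefore does not describe all prostaglandin E synthase transcripts.

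Both synthase genes fell with NZM in BMSC. Ptges read 92.2, 84.7 and 86.5 TPM in Aged and 51.6, 48.4 and 51.2 TPM in Aged_NZM (1.74-fold, log2 change -0.79, SE 0.05, adjusted p = 3.82e-07). Ptges2 read 13.6, 12.7 and 12.9 TPM against 9.93, 9.32 and 8.67 TPM (1.41-fold, log2 change -0.45, SE 0.07, adjusted p = 0.000225). Neither pair of groups overlapped. The order of Ptges2 was Aged, Aged_NZM, LPS, LPS_NZM and Control, and LPS overlapped with both of its neighbours. Across the 5 groups Ptges and Ptgs2 had the same order of means, LPS, Aged, Aged_NZM, LPS_NZM and Control, and no neighbours in it overlapped.

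Promoters are shown for the 3 genes called with a log2 change of at least 2 in either direction in LPS against Control, since Ptgs2 and Ptges moved together and Hpgd opposite to them. They are RefSeq sequences of build GRCm38.p6, an older build than the GRCm39 of the deposited values, on the strand of the gene, from 250 bases before the transcription start to 50 after it. Capitals mark matches, on either strand, to a form of the TATA box (TATAAA), to the core of the cyclic AMP response element (TGACG) and to a loose form of the NF-kB site, which is 3 bases of G and 2 of C with any 5 bases between them. Ptgs2 lies at chr1:150099781-150100080 (plus strand), Ptges at chr2:30903248-30903547 (minus strand) and Hpgd at chr8:56294302-56294601 (plus strand).
Ptgs2: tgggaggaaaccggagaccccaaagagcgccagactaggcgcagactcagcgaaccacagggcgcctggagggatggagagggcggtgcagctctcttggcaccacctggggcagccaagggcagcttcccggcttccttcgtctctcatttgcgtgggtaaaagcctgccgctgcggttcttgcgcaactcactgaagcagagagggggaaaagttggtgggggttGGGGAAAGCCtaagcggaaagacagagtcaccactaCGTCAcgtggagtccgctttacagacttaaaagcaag
Ptges: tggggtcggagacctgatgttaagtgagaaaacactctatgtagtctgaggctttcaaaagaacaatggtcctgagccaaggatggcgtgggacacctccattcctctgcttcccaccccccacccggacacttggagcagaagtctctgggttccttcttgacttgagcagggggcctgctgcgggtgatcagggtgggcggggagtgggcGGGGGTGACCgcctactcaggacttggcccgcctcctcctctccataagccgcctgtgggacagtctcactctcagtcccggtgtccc
Hpgd: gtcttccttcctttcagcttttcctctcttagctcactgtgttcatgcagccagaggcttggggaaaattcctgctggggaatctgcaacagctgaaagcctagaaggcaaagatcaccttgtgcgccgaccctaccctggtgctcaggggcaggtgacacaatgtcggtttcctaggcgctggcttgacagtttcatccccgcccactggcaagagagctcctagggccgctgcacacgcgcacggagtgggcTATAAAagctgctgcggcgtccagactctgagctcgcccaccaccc

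Both rising genes held 1 match to the loose NF-kB form, which is common: 50.8% of the 32851 promoters of this length in the table hold it. It stood at bases -23 to -14 in Ptgs2 and -38 to -29 in Ptges, counted from the start as base 1 with no base 0. Ptgs2 also held TGACG on the opposite strand at bases 14 to 18 (20.8% of promoters). Hpgd held TATAAA at bases 5 to 10 (13.6% of promoters), and the gene start in GENCODE vM21, of the same build, lies 33 bases further downstream. For Ptges the gene start in GENCODE vM21 is at base 30929863, far upstream of the RefSeq start at base 30903297, so the positions given for Ptges hold for the RefSeq start only. No 2 of these matches overlapped, and a match is a description of letters, not a measured site.

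The gene that inactivates prostaglandin E2 fell with LPS and stayed below Control with NZM. Hpgd (ENSMUSG00000031613) read 28, 29.1 and 29.9 TPM in Control, 5.97, 5.94 and 4.37 TPM in LPS and 9.91, 9.23 and 11.3 TPM in LPS_NZM, with no overlap between groups. It was 5.34-fold lower in LPS than in Control (log2 change -2.23, SE 0.11, adjusted p = 2.57e-08). In LPS_NZM it was 1.87-fold above LPS (log2 change 0.80, adjusted p = 6.78e-05) and 2.86-fold below Control (log2 change -1.43, adjusted p = 3.53e-06). After centring the log2 change of Hpgd was -1.69 for LPS against Control and 0.34 for LPS_NZM against LPS. It was -1.35 for LPS_NZM against Control, and each of these was still called. In BMSC, Hpgd was listed at 0 in 5 of 6 libraries and at 0.06 TPM in Aged replicate 3, too low to test.

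Ptger4, the EP4 receptor for prostaglandin E2, differed by 1.28-fold to 1.76-fold between the BMDM groups and was not called changed by NZM in BMSC. It (ENSMUSG00000039942) read 11.3, 11.7 and 9.27 TPM in Control, 8.18, 6.96 and 8.30 TPM in LPS and 13.9, 13.8 and 13.7 TPM in LPS_NZM. The 3 groups did not overlap, with LPS lowest. Its fall with LPS (log2 change -0.41, SE 0.09, adjusted p = 0.00215) was smaller than the shift of all genes and was 0.13 after centring for Ptger4 (adjusted p = 0.222). Its rise in LPS_NZM against LPS was called on both scales, at log2 changes of 0.75 (adjusted p = 3.51e-05) and, centred, 0.29 (adjusted p = 0.0194) for Ptger4. LPS_NZM also stood above Control (log2 change 0.34, adjusted p = 0.0136). In BMSC, Ptger4 read 6.68, 7.46 and 6.84 TPM in Aged and 7.30, 6.96 and 6.94 TPM in Aged_NZM, which overlapped (log2 change 0.01, 95% interval -0.15 to 0.18, adjusted p = 0.873). The order of Ptger4 was LPS_NZM, Control, LPS, Aged_NZM and Aged, and the last 3 overlapped as neighbours. The gene Ttc33 overlaps Ptger4 on the opposite strand in GENCODE vM21, and whether counting used the strand is not given in the sources used here.

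The 3 leukotriene genes were read in BMDM and were at or near 0 in BMSC. Alox5ap (ENSMUSG00000060063) was the most abundant, at 461.5, 435.1 and 448.6 TPM in Control, 164.5, 156.0 and 158.0 TPM in LPS and 266.8, 260.9 and 251.7 TPM in LPS_NZM. The groups did not overlap. It fell 2.81-fold with LPS (log2 change -1.49, SE 0.03, adjusted p = 1.05e-10), and LPS_NZM was 1.63-fold above LPS (log2 change 0.70, adjusted p = 2.59e-08) and 1.73-fold below Control (log2 change -0.78, adjusted p = 5.81e-08). These 3 calls of Alox5ap held after centring, with log2 changes of -0.94, 0.24 and -0.70.

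Ltc4s (ENSMUSG00000020377) read 4.83, 4.10 and 6.28 TPM in Control, 2.63, 1.92 and 1.63 TPM in LPS and 6.79, 9.82 and 8.32 TPM in LPS_NZM. LPS was lowest and LPS_NZM highest, without overlap. The fall with LPS (log2 change -0.99, SE 0.17, adjusted p = 0.000419) was -0.44 after centring for Ltc4s (adjusted p = 0.0512). The rise in LPS_NZM over LPS was 4.03-fold (log2 change 1.61, SE 0.17, adjusted p = 1.23e-05, or 1.14 centred). LPS_NZM against Control gave a log2 change of 0.62 for Ltc4s (adjusted p = 0.0148), which was not called without Control replicate 2 (0.50, adjusted p = 0.0573) and, in turn, not without LPS_NZM replicate 2 (adjusted p = 0.0597).

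Alox5 (ENSMUSG00000025701) spread widely within Control, at 6.27, 18.6 and 12.2 TPM, while LPS read 6.82, 6.50 and 6.49 TPM and LPS_NZM 10.6, 9.81 and 9.78 TPM. Control thus overlapped with both other groups, while LPS and LPS_NZM did not overlap. The lower level in LPS than in Control was called for Alox5 (log2 change -0.70, SE 0.28, adjusted p = 0.0387) but not after centring (-0.15, adjusted p = 0.644). That call was also lost when any library other than Control replicate 1 was left out, with adjusted p from 0.0505 to 0.129 for Alox5. The log2 change of Alox5 itself was -0.37 without Control replicate 2, -1.08 without Control replicate 1, and -0.72 to -0.65 in the other cases. The call of Alox5 was lost too with no filter on low genes (adjusted p = 0.0966), with no mean-variance trend (adjusted p = 0.0595) and with only the groups compared in the fit (adjusted p = 0.0675). LPS_NZM against LPS was not called for Alox5 (log2 change 0.54, 95% interval -0.08 to 1.16, adjusted p = 0.1), but leaving out Control replicate 1 (adjusted p = 0.00408), without Control replicate 2 (adjusted p = 0.0233), or with only these 2 groups in the fit (adjusted p = 0.000148), the same difference was. LPS_NZM against Control was not called for Alox5 (log2 change -0.16, 95% interval -0.78 to 0.46, adjusted p = 0.663), and read -0.54 without Control replicate 1 (adjusted p = 0.0142) and 0.17 without Control replicate 2 (adjusted p = 0.54).

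The summed mast cell and basophil markers had the same order as Alox5 among the Control libraries, but this order was not particular to them. The stromal sums shared it, at 2639, 2842 and 2730 TPM in Control replicates 1, 2 and 3. The macrophage sums had the reverse order, at 30453, 28210 and 28568 TPM. The mast cell and basophil markers summed to 16.8, 532.8 and 200.3 TPM in Control replicates 1, 2 and 3. Of the defining markers Mcpt4 and Tpsb2 were listed at 0 in Control replicate 1. In LPS the sums were 236.7, 253.6 and 227.0 TPM, and in LPS_NZM 126.9, 161.1 and 216.2 TPM, so that LPS, with higher sums than LPS_NZM, had lower Alox5. Alox5ap and Ltc4s did not share this order in Control, where Ltc4s was lowest and Alox5ap lowest in replicate 2. This pairing of Alox5 with the mast cell list was chosen after its values were seen, and the part of such cells in the result was not tested.

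**Figure D3:**
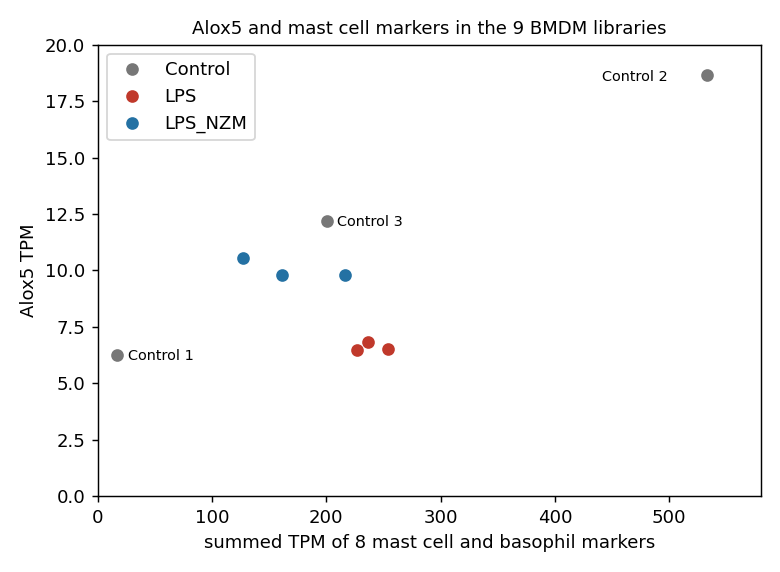
Alox5 TPM (vertical) against the summed TPM of 8 mast cell and basophil markers (horizontal) in the 9 BMDM libraries, both axes linear from 0; points are libraries, coloured by group. The 3 Control libraries spread from 16.8 to 532.8 TPM of markers and from 6.27 to 18.6 TPM of Alox5, while LPS and LPS_NZM form separate clusters.

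In BMSC the highest single values were 0.07 TPM for Alox5, 0.39 TPM for Alox5ap and 0.15 TPM for Ltc4s. Alox5 was listed at 0 in every Aged_NZM library and Ltc4s in every Aged library. None of the 3 reached the minimum for a test, and no fold is given between the cell types, which also differed in treatment.

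**Figure D4:**
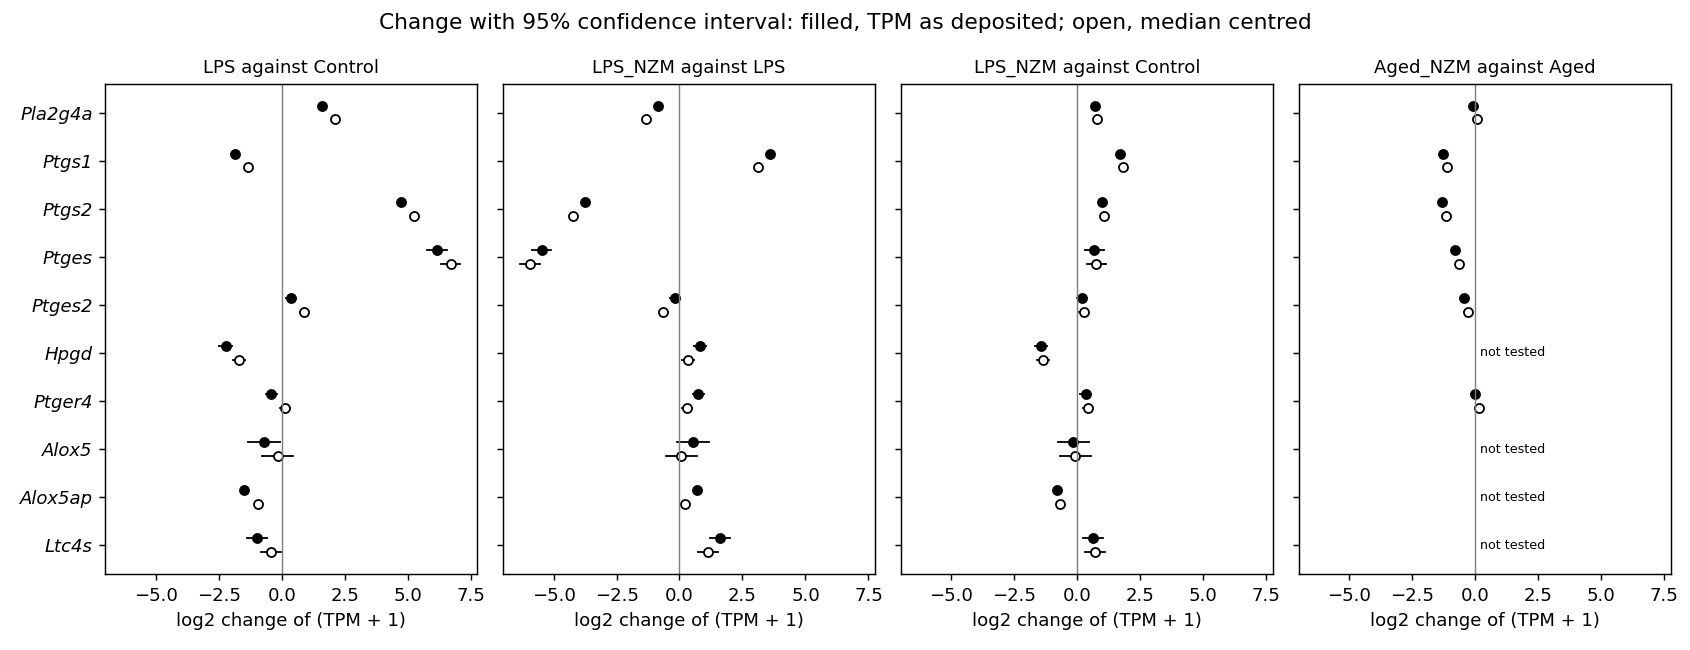
Log2 change of (TPM + 1) with 95% confidence interval (horizontal) for the 10 genes in 4 comparisons; filled points are TPM as deposited and open points are the median-centred scale. Ptgs2 and Ptges lie far right in LPS against Control and far left in LPS_NZM against LPS, where Ptgs1 lies at 3.59, and all 4 called BMSC changes are falls.

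The response to NZM was compared between the cell types by the difference of LPS_NZM against LPS and Aged_NZM against Aged in a fit of all 15 libraries, where pretreatment and cell type differ together and cannot be told apart. Hpgd, Alox5, Alox5ap and Ltc4s were at or near 0 in BMSC and entered this fit through BMDM alone, so BMSC gave no response to compare for them. Of the other 6 genes 3 were called higher in BMDM than in BMSC (Ptgs1, Ptges2 and Ptger4) and 3 lower, where 72% of 16696 genes were called, 54.8% higher and 17.2% lower. Those shares also include genes read in 1 cell type only. After centring 1 of the 6 was higher and 4 lower, where 68.6% of genes were called, 28.7% higher and 39.9% lower. Ptgs1 rose in one and fell in the other, a difference of 4.87 (SE 0.07, adjusted p = 1.66e-15). Ptgs2 fell in both and more in BMDM, a difference of -2.46 (SE 0.07, adjusted p = 4.45e-13). Ptges had a difference of -4.68 (SE 0.21, adjusted p = 6.71e-11) and Pla2g4a one of -0.79 (SE 0.05, adjusted p = 1.32e-09). These 4 differences kept their sign and their call after centring, at 4.25 for Ptgs1, -3.08 for Ptgs2, -5.31 for Ptges and -1.41 for Pla2g4a. For Ptger4 the difference was 0.74 (adjusted p = 4.69e-05), or 0.11 centred (adjusted p = 0.402).

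The other genes of the pathway comprised 55 symbols in 7 lists, of which 54 matched 1 identifier and Dpep2, which stands for more than 1, was left out. In LPS against Control 39 of the 54 were tested, with 11 called higher and 20 lower and a median log2 change of -0.38, against -0.48 over all genes. After centring 18 were higher and 13 lower. In LPS_NZM against LPS 22 were higher and 11 lower with a median of 0.39 against 0.40 over all genes, or 13 and 17 centred. In LPS_NZM against Control 10 were higher and 15 lower, or 10 and 10 centred. In Aged_NZM against Aged 27 were tested, with 11 higher and 10 lower, or 13 and 6 centred. In the same comparisons 15.2%, 60.4%, 18.6% and 21.6% of all genes were called higher on the deposited scale, and 65.6%, 16.9%, 29.1% and 48.9% lower. After centring 36.5%, 29.8%, 24.9% and 31.1% were higher, and 29.1%, 35.3%, 22% and 35.4% lower. Nothing particular to the pathway is read from these counts.

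Among the other prostanoid synthases 7 of 8 were called lower in LPS than in Control and none higher, or 5 lower and 1 higher after centring. Of all genes 65.6% were lower and 15.2% higher there, or 29.1% and 36.5% centred. Hpgds, which makes prostaglandin D2, read 73.8 ± 2.53 TPM in Control, 12.8 ± 1.69 TPM in LPS and 30.8 ± 2.07 TPM in LPS_NZM (SD, n = 3). Tbxas1, the thromboxane synthase, read 222.7 ± 6.47, 78.3 ± 4.04 and 419.7 ± 5.22 TPM in the same groups. It was called lower in LPS than in Control and higher in LPS_NZM than in LPS (log2 changes -1.50 and 2.41). Cbr1, a carbonyl reductase, fell from 38.0 ± 2.38 to 14.3 ± 0.432 TPM with LPS and read 32.6 ± 2.23 TPM in LPS_NZM. In LPS_NZM against LPS 7 of the 8 were higher and none lower, or 5 and 1 centred. Of all genes 60.4% were higher and 16.9% lower in that comparison, or 29.8% and 35.3% centred. Tbxas1 thus had the order LPS_NZM, Control, LPS from highest to lowest, as Ptgs1 did.

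Among the phospholipase and reacylation genes 4 of 11 tested were higher and 6 lower with LPS, or 5 and 2 centred. Of all genes 15.2% were higher and 65.6% lower with LPS, or 36.5% and 29.1% centred. In LPS_NZM against LPS 6 of this list were higher and 4 lower, or 4 and 5 centred. Of all genes 60.4% were higher and 16.9% lower there, or 29.8% and 35.3% centred. Lpcat2, an acyltransferase that puts fatty acids back into phospholipids and makes platelet-activating factor, rose from 32.9 ± 2.69 to 166.6 ± 3.85 TPM with LPS and was at 24.7 ± 0.558 TPM in LPS_NZM. Pla2g15, the lysosomal phospholipase A2, moved the opposite way: Control held 97.6 ± 4.31 TPM, LPS 19.7 ± 2.18 TPM and LPS_NZM 262.0 ± 6.96 TPM. Pla2g12a, a secreted phospholipase A2, was highest of the BMDM groups in LPS_NZM at 32.8 ± 1.99 TPM, against 7.06 ± 0.749 TPM in LPS and 10.9 ± 0.592 TPM in Control. Pla2g5, another secreted one, was at 1.81 ± 1.35 TPM in Control and 5.63 ± 1.48 TPM in LPS_NZM, a called rise (log2 change 1.33, adjusted p = 0.00597).

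Transport and breakdown genes of prostanoids included Abcc4, an exporter of prostaglandins, which fell from 40.9 ± 0.837 TPM in LPS to 17.3 ± 0.430 TPM in LPS_NZM, and Ptgr2, a prostaglandin reductase, which was at 49.2 ± 2.62 TPM in Control, fell with LPS to 17.5 ± 0.2 TPM and read 42.1 ± 2.12 TPM in LPS_NZM. Of the 5 genes of this list 2 were higher and 1 lower with LPS, or 4 and 1 centred, and 2 were higher and 3 lower in LPS_NZM against LPS, or 1 and 4 centred. The shares of all genes with LPS were 15.2% higher and 65.6% lower, or 36.5% and 29.1% centred. In LPS_NZM against LPS they were 60.4% and 16.9%, or 29.8% and 35.3% centred. Ptgir, the prostacyclin receptor, read 10.8 ± 0.410 TPM in Control, 29.9 ± 0.405 TPM in LPS and 30.3 ± 2.12 TPM in LPS_NZM. Its difference between the last 2 groups was 0.02 on the log2 scale (95% interval -0.11 to 0.15), or -0.45 after centring for Ptgir (adjusted p = 0.00015). Of the 5 tested prostanoid receptors 3 were higher and 1 lower with LPS on both scales, beside the shares of all genes given above.

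Among the other leukotriene genes 4 of 6 tested enzymes and exporters were lower with LPS, on both scales, and 1 was higher, or 2 centred. Of all genes 65.6% were lower as deposited, near the share of these 6, and 29.1% centred. Mgst2, a microsomal glutathione transferase that can make leukotriene C4, fell from 14.8 ± 3.60 to 6.56 ± 0.885 TPM (log2 change -1.04, adjusted p = 0.000224). In LPS_NZM against LPS 4 of the 6 were higher and 1 lower, or 2 and 2 centred. Of all genes 60.4% were higher and 16.9% lower there, or 29.8% and 35.3% centred. Ggt5, which converts leukotriene C4 to leukotriene D4, rose from 2.77 ± 0.03 TPM in LPS to 23.0 ± 0.267 TPM in LPS_NZM. Abcc1, which exports leukotriene C4, was the 1 called lower as deposited and fell from 293.1 ± 6.87 to 135.5 ± 1.5 TPM. Of the 3 leukotriene receptors tested, 1 was higher and 2 lower in LPS_NZM against LPS on both scales, beside the same shares of all genes. Ltb4r1, the high-affinity receptor for leukotriene B4, rose from 6.40 ± 0.635 TPM in LPS to 66.8 ± 4.89 TPM in LPS_NZM. This rise had a log2 change of 3.20 (SE 0.08, adjusted p = 1.34e-10), and Ltb4r1 was at 10.7 ± 0.442 TPM in Control. Cysltr1 fell from 17.1 to 8.87 TPM and Cysltr2 from 2.75 to 1.41 TPM between LPS and LPS_NZM. Of the 6 other lipoxygenases 1 reached the minimum level in BMDM, and it was not called in any comparison of BMDM groups as deposited.

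In BMSC no gene of the 7 lists met the rule for naming in Aged_NZM against Aged, which asks for a call, an absolute log2 change of 1 or more, and 5 TPM or more as the larger of the group means. Abundant genes came close to that cut, in both directions. Zadh2 was 2.00-fold higher, at 48.6 TPM in Aged and 97.3 TPM in Aged_NZM. Akr1b3 was 1.99-fold lower, at 476.8 and 240.1 TPM in the same groups. By list 3 of 7 tested phospholipase and reacylation genes were higher and 4 lower, 1 of 5 prostanoid synthases higher and 2 lower, 3 of 5 transport and breakdown genes higher and 1 lower, and 1 of 4 prostanoid receptors higher and none lower. Of 5 leukotriene enzymes and exporters 3 were higher and 2 lower, and no leukotriene receptor reached the minimum level. The 1 other lipoxygenase tested was lower. These are counts of TPM as deposited, where 21.6% of all genes were higher and 48.9% lower. After centring the phospholipase list had 3 higher and 2 lower, the synthases 2 and 2, transport and breakdown 3 and 1, the receptors 2 and none, and the leukotriene enzymes and exporters 3 and none, where 31.1% of all genes were higher and 35.4% lower.

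**Figure D5:**
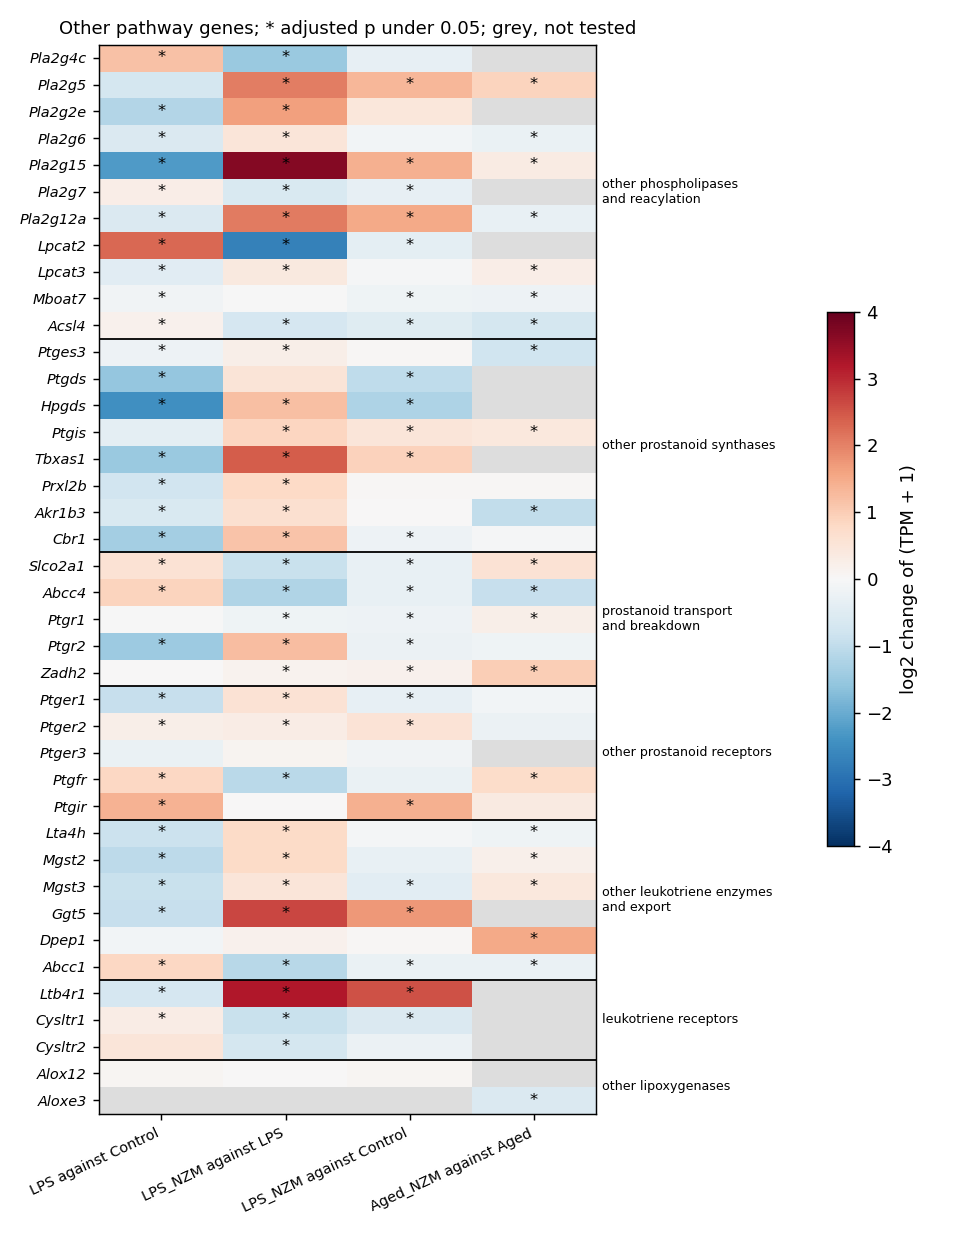
Log2 change of (TPM + 1) (colour, from -4 to 4) of the other pathway genes (vertical, grouped by list) in 4 comparisons (horizontal), for TPM as deposited; an asterisk marks an adjusted p under 0.05 and grey a gene not tested. Pla2g15, Ltb4r1, Ggt5 and Tbxas1 are the deepest rises in LPS_NZM against LPS, and Lpcat2 is the deepest fall.

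The genes with the most similar patterns were found by Pearson correlation of log2(TPM + 1) over the 15 libraries. The search covered the 11515 genes with a regular symbol that averaged 5 TPM or more in some group. Identifiers without a symbol or with a provisional one, such as Gm names, were left out. The result is given as a description because the libraries fall into 5 groups and 2 cell types. For Ptgs2 they were Traf2 (r = 0.981), Psma6 (0.981) and Msantd3 (0.978). For Ptges they were Foxp4 (0.992), Whamm (0.987) and Zhx2 (0.987). For Alox5ap they were Ccl6, C5ar1 and Pld4 (each 0.999), and for Alox5 Akr1c12 (0.995), Capza1 (0.991) and Scp2-ps2 (0.991), where the gap between BMDM and BMSC sets most of the value.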

How the data were processed

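Polyadenylated RNA was sequenced in 15 libraries of 5 groups. The authors deposited 1 table of TPM, made, per the submitters' processing notes, with GRCm39 and the tools RSEM, StringTie, HISAT2 and fastp. Versions, roles, annotation and strand setting are not given in the sources used here. Each column sums to the same total within rounding, so depth is unknown and no counting interval is given. No 2 columns were identical.

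Symbols came from a name table for an older build, so no coordinates are given for the measured genes. Groups followed the sample titles. Tests ran in R 4.3.3 with the package limma 3.58.1 on log2(TPM + 1) values (mean-variance trend, two-sided, Benjamini-Hochberg over all tested genes), for genes with a TPM of at least 1 in at least 3 libraries of the fit. The 9 BMDM, the 6 BMSC and all 15 libraries were fitted separately. The procedure was tested on simulated data in which only 200 genes changed. Those data held no shift of all genes, so that test does not cover the shift described above. Figures used Python 3.11.15 with matplotlib 3.10.9.

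Alternatives were median centring, no filter, no trend, a pseudocount of 0.1, a minimum of 5 TPM, a block for the replicate number, only the groups compared, and leaving out each library. The 10 genes and all lists were chosen with earlier results of these data known. Every one of the 10 was named. Other pathway genes were named when called with an absolute log2 change of 1 or more and with 5 TPM or more as the larger group mean, at most 3 per list and comparison. Zadh2 and Akr1b3 are given in BMSC as well, being close to that cut. Ptges3, Cysltr1 and Cysltr2 are given outside that rule, beside related genes. Lists of megakaryocyte, eosinophil, endothelial, B cell, T cell and dendritic cell markers were summed too. In BMDM they read 848.2 to 1282 TPM, 26.0 to 56.4 TPM, 38.8 to 83.6 TPM, 2.02 to 6.31 TPM, 7.70 to 17.5 TPM and 25.9 to 72.9 TPM, and at most 15.1 TPM in BMSC.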

Additional observations from a re-analysis of the deposited data

Results flagged for a closer look

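The NZM response differed between BMDM and BMSC, by a test of the difference itself in limma, for 6 of the 10 genes. These are members tested in both cell types, and 72% of all 16696 genes were called in this difference. The 7 pathway genes listed after them were also tested in both cell types. They were named because of this same call, so their number is not a result. Values are the log2 change of LPS_NZM against LPS minus that of Aged_NZM against Aged. Among the 10 genes it was 4.87 for Ptgs1, -2.46 for Ptgs2, -4.68 for Ptges, 0.28 for Ptges2, -0.79 for Pla2g4a and 0.74 for Ptger4. In lipid release and prostanoid synthesis it was 3.36 for Pla2g15, 2.36 for Pla2g12a and 1.62 for Akr1b3. In transport, breakdown and receptors of prostanoids it was -1.47 for Slco2a1, 1.40 for Ptgr2 and -1.80 for Ptgfr, and in the leukotriene branch -1.35 for Dpep1. The values of Dpep1 and Ptgfr rest in part on low levels. Dpep1 had a BMSC group mean under 1 TPM, and in BMDM it read 14.5 TPM in LPS and 16.3 TPM in LPS_NZM. Ptgfr read 2.59 TPM in LPS and 0.70 TPM in LPS_NZM.

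Another 8 genes passed the same test but were too low in BMSC to be tested there, so no response of BMSC stands behind the values, which are not counted as differences between the cell types. They were 0.83 for Hpgd, 0.72 for Alox5ap, 1.48 for Ltc4s, -2.77 for Lpcat2, 2.71 for Tbxas1, 1.21 for Hpgds, 2.59 for Ggt5 and 3.35 for Ltb4r1. The shift of all genes in the difference was 0.45. After centring the values for Hpgd (0.21), Ptger4 (0.11) and Alox5ap (0.09) were not called, and that of Ptges2 turned to -0.34.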

How the results depend on the processing

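Of the counts, only median centring moved any by more than 1.5 times. The members called lower in LPS against Control went to 3, and the members called higher in the difference of the NZM responses went to 2. Pathway genes called went to 18 higher and 13 lower in LPS against Control, to 13 higher and 17 lower in LPS_NZM against LPS, to 6 lower in Aged_NZM against Aged, and to 12 higher and 18 lower in the difference, whose counts include genes near 0 in BMSC. The cause of the shift was not tested. Signs turned after centring for Ptger4 in LPS against Control (0.13), Pla2g4a in Aged_NZM against Aged (0.079), and Ptges2 (-0.34, called) and Alox5 (-0.051) in the difference. Leaving out single libraries, Alox5 in LPS_NZM against Control ranged from -0.54 (without Control replicate 1) to 0.17 (without Control replicate 2). Ptger4 in Aged_NZM against Aged ranged from -0.014 (without Aged replicate 1) to 0.056 (without Aged replicate 2). Alox5 and Alox5ap were at or near 0 in BMSC, so their values in the difference of the NZM responses come from BMDM alone. In that difference Alox5 was called without Control replicate 1 (0.57, adjusted p = 0.00616) or 2 (adjusted p = 0.0328). The call of Alox5ap was lost with a pseudocount of 0.1 (0.68, adjusted p = 0.184). Neither is read as a result about the cell types. The call of Ptges2 in this difference was lost without LPS replicate 3, LPS_NZM replicate 3, Aged replicate 1 or Aged_NZM replicate 3, with adjusted p from 0.0644 to 0.0758.

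The libraries carry only a number. Deviations of same-numbered libraries correlated at -0.07 to 0.21 across genes, not above 0.1 for every pair, so the numbers were not taken as a pairing. With the replicate block all genes called in LPS against Control numbered 11683, in LPS_NZM against LPS 11089, in LPS_NZM against Control 6681, in Aged_NZM against Aged 9688 and in the difference 11963, and no call of the 10 genes changed. Depth is unknown, so what it limits cannot be stated, but genes near 0 TPM give no usable change.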
